A study of Mus musculus with 2 samples.

Results

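The transcripts described here are the retained-intron transcripts that adult mouse lung expressed at 5 TPM or more, TPM being a length-normalised share of all transcripts in a library. A transcript was taken when the GENCODE mouse annotation gives it the type retained_intron and its deposited TPM was at least 5 in both libraries. Of 14285 transcripts with that type in the tables, 1468 passed (10.3%), and they came from 1058 genes, called host genes below. They made up 11.0% of the 13292 transcripts of any type that reached 5 TPM in both libraries. Since they were selected on TPM, their levels are a description and carry no test. Whole lung of C57BL/6J mice gave polyadenylated RNA above 200 nt, and with spike-in RNA added it was read from both ends for 76 nt, keeping strand. The tissue came from littermates of both sexes, pooled, at 8 weeks of age. The study holds 2 libraries, replicates 1 and 2 of 1 untreated group, so it has no comparison between groups and no p-value is given. The labels tie both libraries to the same donor record and to separate tissue samples, so their spread may be technical in part.

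An intron is removed from the primary transcript by the spliceosome, which recognises a GT at its start and an AG at its end in nearly all introns. An intron that stays in a polyadenylated transcript often brings a stop codon into the reading frame ahead of a later exon junction, and such a transcript is a substrate of nonsense-mediated decay once it is translated. Other intron-containing transcripts are held in the nucleus and spliced later or degraded there, and genes for splicing factors and their kinases are well known for both forms of control. The annotation type retained_intron is wider than this: it holds alternative transcripts with intronic sequence and no annotated reading frame, many of them partial models that start or end inside an intron.

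The sequences below show a whole intron that lies inside an exon in each of 7 members. They were chosen because the members are abundant, hold nearly all of their gene's TPM, differ strongly between the libraries or belong to a splicing kinase gene. All are from the GENCODE M21 transcript sequences on GRCm38 (mm10), read 5′ to 3′. Capitals mark the first and last 2 bases of the intron and, where it has one, the first stop codon in the frame of the coding transcript.
Vim-204, intron 3 of Vim-201, chr2:13578509-13578588, plus strand: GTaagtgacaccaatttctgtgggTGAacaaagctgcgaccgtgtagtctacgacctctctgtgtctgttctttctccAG
Tpt1-206, intron 3 of Tpt1-201, chr14:75846394-75846693, plus strand: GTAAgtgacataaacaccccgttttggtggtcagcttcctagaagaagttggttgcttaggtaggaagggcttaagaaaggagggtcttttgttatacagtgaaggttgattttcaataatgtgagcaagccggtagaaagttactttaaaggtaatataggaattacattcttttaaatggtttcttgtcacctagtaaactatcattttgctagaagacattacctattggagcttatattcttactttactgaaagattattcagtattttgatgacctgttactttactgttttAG
Rps16-202, intron 3 of Rps16-201, chr7:28352274-28352362, plus strand: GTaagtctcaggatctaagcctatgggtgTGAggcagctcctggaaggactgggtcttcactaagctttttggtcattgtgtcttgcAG
Hspa8-207, intron 3 of Hspa8-201, chr9:40802624-40802738, plus strand: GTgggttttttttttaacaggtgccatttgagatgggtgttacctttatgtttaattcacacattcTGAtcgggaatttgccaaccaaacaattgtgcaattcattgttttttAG
Tuba1b-202, intron 2 of Tuba1b-201, chr15:98932841-98932972, minus strand: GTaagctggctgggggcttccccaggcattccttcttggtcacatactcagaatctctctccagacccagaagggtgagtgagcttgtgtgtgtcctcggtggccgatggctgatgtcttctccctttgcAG
Mrps26-201, intron 2 of Mrps26-202, chr2:130564228-130564307, plus strand: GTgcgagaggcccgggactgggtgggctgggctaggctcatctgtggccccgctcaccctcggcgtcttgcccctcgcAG
Clk1-204, intron 6 of Clk1-201, chr1:58417180-58417266, minus strand: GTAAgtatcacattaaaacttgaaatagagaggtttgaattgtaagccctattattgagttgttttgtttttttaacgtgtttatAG
All 7 introns begin with GT and end with AG. The frame of the coding transcript met a stop codon inside 5 of them and none inside the introns of Tuba1b-202 and Mrps26-201. The GC content of these introns ran from 27.6% in Clk1-204 to 72.5% in Mrps26-201. Clk1-204 also keeps introns 3 and 4 of Clk1-201, of 871 and 387 bases, which are not printed. The frame meets a stop codon in intron 3, upstream of the stop codon marked in intron 6.

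A further 3 members hold no whole intron, and the start of each lies inside an intron of the coding transcript. Their intronic part is shown because it is the only sequence by which the member leaves that coding transcript at this end. Capitals mark the AG at the end of the intron, which the member contains.
Hba-a1-202, intron 1 of Hba-a1-201, chr11:32283811-32283923, plus strand: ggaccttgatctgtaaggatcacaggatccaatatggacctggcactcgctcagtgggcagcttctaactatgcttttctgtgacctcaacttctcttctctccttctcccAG
Cbr2-203, intron 6 of Cbr2-201, chr11:120730033-120730105, minus strand: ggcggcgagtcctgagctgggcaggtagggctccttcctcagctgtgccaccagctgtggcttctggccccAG
Ramp2-205, intron 1 of Ramp2-204, chr11:101246933-101247054, plus strand: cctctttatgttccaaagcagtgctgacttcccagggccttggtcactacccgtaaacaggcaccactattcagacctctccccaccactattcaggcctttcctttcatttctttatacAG
Hba-a1-202 starts inside the 122 bases of intron 1 and keeps the last 113 of them. Cbr2-203 keeps the last 73 bases of a 224-base intron, and Ramp2-205 the last 122 of 482. The map of 4 members against a coding transcript shows both kinds of structure.

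**Figure D1:**
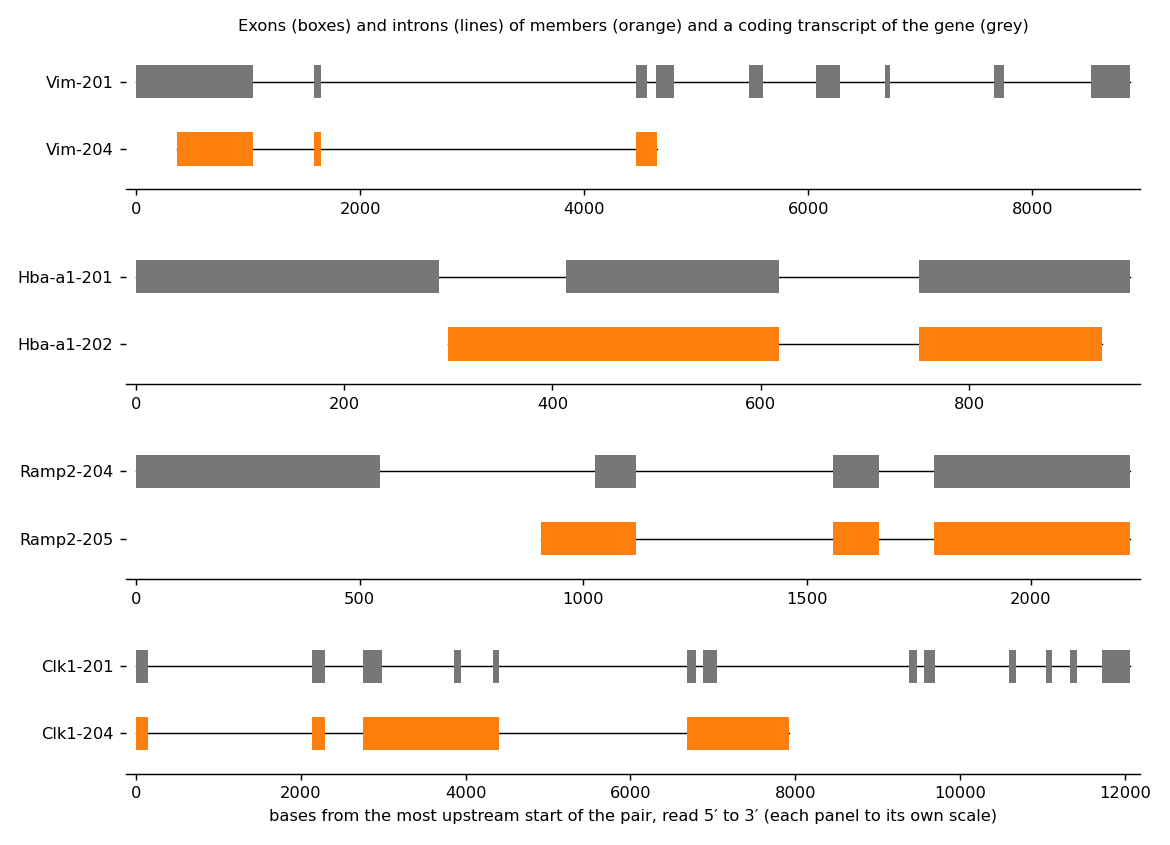
Exons (boxes) and introns (lines) of 4 members in orange and of a coding transcript of the same gene in grey, against bases from the most upstream start of the pair, each panel to its own scale. Vim-204 and Clk1-204 run through whole introns, while Hba-a1-202 and Ramp2-205 begin inside the first intron.

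The libraries held 48234745 and 44182836 expected counts on mouse gene rows in replicates 1 and 2. Lung markers stood at like levels in both: Sftpc at 22806 and 22331 TPM, Ager at 1703 and 1669, Cldn5 at 669 and 815. Markers of other tissues did not. The summed level of 8 squamous epithelium markers was 5449 TPM in replicate 1 and 2.34 in replicate 2, where Krt6a and Krtdap were at 0. The 8 skeletal muscle markers summed to 2865 and 60.5 TPM, with Myh4, Myh8 and Tnnc2 at 0 in replicate 2. The 9 erythroid markers summed to 22939 and 63414 TPM. No squamous or skeletal muscle marker at 5 TPM in both libraries has a retained_intron row, so none could host a member, and 2 erythroid markers did. In bulk tissue, fewer cells of a type and less RNA per cell cannot be told apart.

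The members ranged from the 5 TPM threshold to 17387 TPM. Their median was 12.8 TPM in replicate 1 and 12.2 in replicate 2, and by mean TPM 539 stood at 5 to 10, 788 at 10 to 50, 83 at 50 to 100, 49 at 100 to 500 and 9 at 500 or more. The median member rested on 336 and 318 expected counts, while 204 members had fewer than 100 in a library. A further 360 rows reached 5 TPM in replicate 1 only and 242 in replicate 2 only, and 2341 of the 14285 rows were at 0 in both. Just inside the threshold lay Smg5-203 (7.17 and 5 TPM), Coro7-208 (5.35 and 5.01) and Rpl12-207 (5.55 and 5.01). Just outside lay Arfrp1-208 (6.58 and 4.99), Syvn1-205 (4.99 and 5.15) and Tanc1-210 (6.40 and 4.99). Members held 5.56% of all TPM in replicate 1 and 7.63% in replicate 2. Without the globin members Hba-a1-202 and Hbb-bs-202 the shares were 4.86% and 5.05%. Of expected counts, which do not divide by transcript length, members held 2.76% and 3.44%.

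A few abundant members carried much of that TPM. Hba-a1-202, from the adult alpha-globin gene (chromosome 11, 32283811 to 32284438), stood at 4924 TPM in replicate 1 and 17387 in replicate 2. The coding transcript Hba-a1-201 was at 201 and 261 TPM, so the member held 96.1% and 98.5% of the gene. Hbb-bs-202, from a beta-globin gene, stood at 2111 and 8429 TPM. Its deposited length differs from the annotated length, so its structure is not described. Both globin members were higher in replicate 2, the library with the higher erythroid markers, and the part of those markers in the result was not tested. Hba-a1 has a near-identical copy, Hba-a2, and reads may be divided between these genes in more than 1 way.

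Cbr2-203 was nearly equal in both libraries. Cbr2 encodes a carbonyl reductase of the airway epithelium, and this member (chromosome 11, 120729504 to 120730105) had 8259 and 8427 TPM, or 65.4% and 65.7% of the gene. The coding transcript Cbr2-201 had 3878 and 3847 TPM but more expected counts, 126161 and 122175 against 90664 and 90210. Vim-204, from the gene for the intermediate filament protein vimentin (chromosome 2, 13574322 to 13578604), had 987 and 1537 TPM, or 62.2% and 70.2% of the gene. It keeps the whole 80-base intron 3 and ends shortly after it. Tpt1-206, from the gene for translationally controlled tumour protein (chromosome 14, 75845331 to 75846892), had 679 and 1377 TPM, with 66.4% and 89.7% of the gene. It keeps the 300-base intron 3 and stops inside intron 4.

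The other members of the 15 highest were led by Sparc-205. Sparc-205, from the gene for a collagen-binding matrix protein, had 1301 and 856 TPM, 40.1% and 30.8% of the gene. Rps2-203, from a ribosomal protein gene, had 978 and 605 TPM, and Rps9-206 had 391 and 471. Fasn-202, from the fatty acid synthase gene, had 526 and 535 TPM, 45.6% and 44.5% of the gene. Ces1d-202, from a carboxylesterase gene, had 587 and 434 TPM, and Capns1-207, from the gene for the small calpain subunit, had 552 and 361. Sftpb-203, from the surfactant protein B gene, had 537 and 442 TPM, only 10.9% and 6.5% of a gene at 4944 and 6799 TPM. The ATP synthase members Atp5a1-203 (593 and 390 TPM) and Atp5b-205 (493 and 343 TPM) and the ribosome scaffold member Rack1-203 (456 and 440 TPM) completed the 15.

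**Figure D2:**
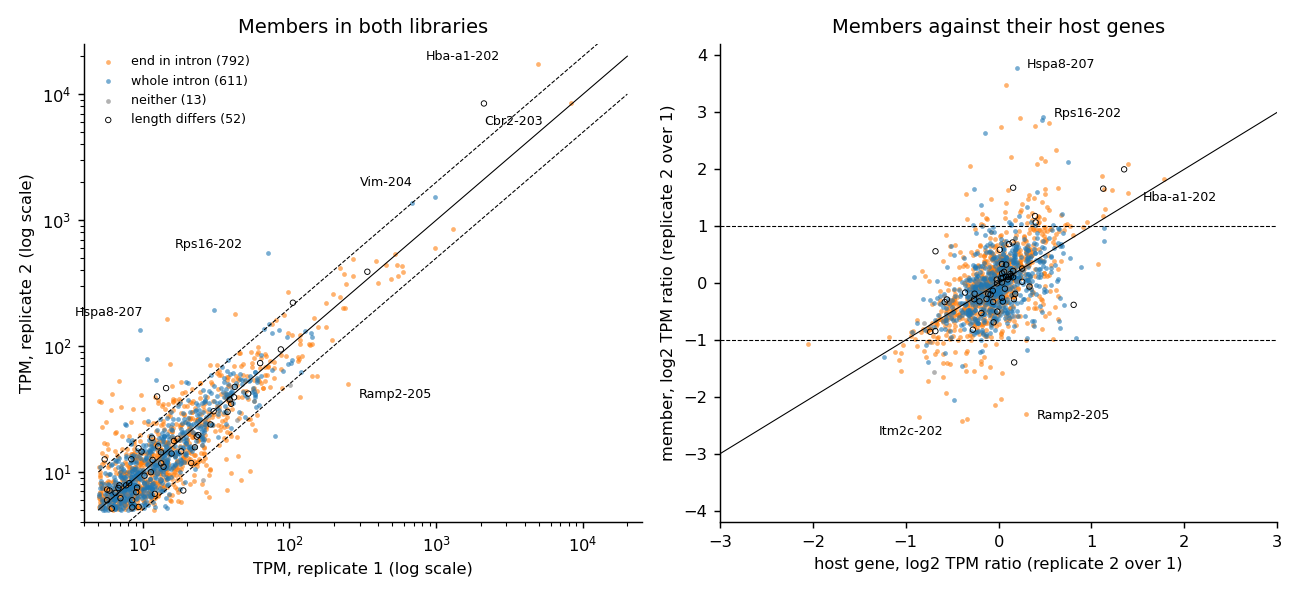
Left, TPM of the 1468 members in replicate 1 (x) and replicate 2 (y), log scales, coloured by whether a whole intron is kept (open circles where deposited and annotated lengths differ), with lines for equal levels and for 2-fold. Right, log2 TPM ratio of replicate 2 over replicate 1 for each member (y) against its host gene (x); Hspa8-207 and Rps16-202 lie far above the line of equal change, Itm2c-202 and Ramp2-205 far below it, and Hba-a1-202 close to it.

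Within their genes most members were minor. IsoPct, the authors' percent of a gene's TPM on a transcript, had a median of 18.3 in replicate 1 and 18.6 in replicate 2 over the 1466 members whose gene has more than 1 transcript. Protein-coding transcripts at 5 TPM had medians of 56.0 and 56.1, transcripts annotated to nonsense-mediated decay 26.2 and 29.0, and processed transcripts 30.5 and 32.0. A member held 50% or more of its gene's TPM in both libraries in 144 cases (9.82%), against 42.0% of all transcripts at the threshold. It was the main transcript of its gene in both libraries in 302 cases (20.6%), against 52.6% of all transcripts and 60.9% of protein-coding ones. At the other end, 348 members held under 10% in both. The median difference in IsoPct between libraries was 3.03 percentage points in members. It was 4.32 in protein-coding, 4.64 in nonsense-mediated decay and 4.935 in processed transcripts. IsoPct was lower in members, so fewer points do not mean steadier shares. Relative to the gene, 6.75% of members were 2-fold apart, against 4.62% of all transcripts in genes with more than 1.

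The 10 members with the highest mean IsoPct include Hba-a1-202, and the other members of that set had far lower TPM. D430040D24Rik-202 held 97.0% and 99.6% of its gene at 5.10 and 9.18 TPM. Mrps26-201, from a mitochondrial ribosomal protein gene (chromosome 2, 130563742 to 130565394), held 96.5% and 97.5% at 39.6 and 60.5 TPM, while the coding Mrps26-202 had 1.45 and 1.53 TPM. The coding model of that gene is 4278 bases long, against 1057 for the member. Timm17a-204, from a mitochondrial import gene, held 95.5% and 93.8% of TPM but 54.5% and 48.5% of the expected counts. It keeps no whole intron, has no end in an intron, and has 4 bases found in no other transcript of the gene. Mrps33-203, of the mitochondrial ribosome, held 92.5% and 89.3%. Eif1ax-202, from a translation initiation factor gene, held 87.8% and 97.7%, and Nmd3-206, from a gene for export of the large ribosomal subunit, held 84.9% and 95.8%. Yars2-205 (88.0% and 92.4%), from the mitochondrial tyrosyl-tRNA synthetase gene, Cutal-204 (87.5% and 91.5%) and Nek1-203 (84.4% and 91.7%), from a kinase gene, had the same pattern. In all 10, with Hba-a1-202, the member was the main transcript of its gene in both libraries.

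A share of TPM favours short transcripts, and most members were short. Their median length was 780.5 bases against 2431 for protein-coding transcripts, 998 were shorter than 1000 bases, and the median member had 32.4% of the length of its gene's longest coding transcript. The share of the host gene's expected counts on a member had a median of 8.01% and 8.53%, and IsoPct was above that share in 1173 members (79.9%). Only 58 members held 50% or more of the counts of their gene in both libraries. The median count share was 4.88% in the 349 members under 600 bases, 5.82% in the 649 of 600 to 1000 bases, 14.7% in the 211 of 1000 to 2000 bases and 23.4% in the 259 longer ones. Median IsoPct in the same bins was 23.6, 16.6, 20.3 and 18.3, with no such order. Fasn-202 is a clear case: at 762 bases it held 45.6% and 44.5% of TPM but 8.96% and 9.24% of the counts, beside the 9587-base Fasn-201 with 83.1% and 81.5% of the counts. Srsf6-204, at 2897 bases, held more of the counts than of TPM.

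**Figure D3:**
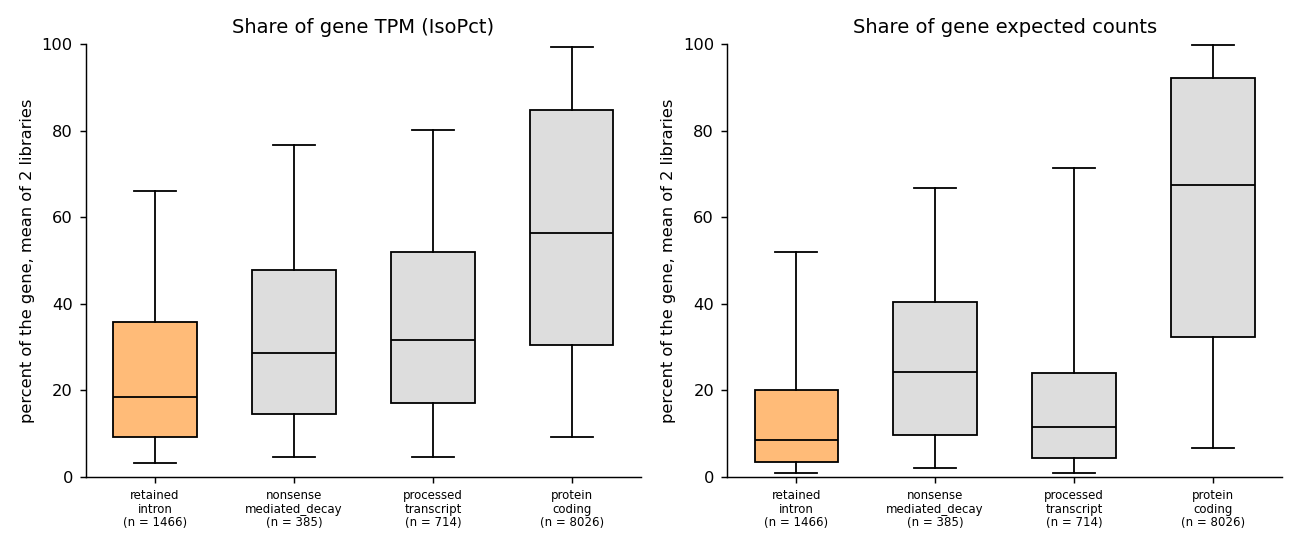
Percent of the gene on a transcript, as a share of TPM (left) and of expected counts (right), mean of 2 libraries, by annotation type, for transcripts at 5 TPM in both libraries in genes with more than 1 transcript. Boxes span the quartiles with the median, whiskers the 5th to 95th percentile; the retained_intron box is the lowest in both panels.

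The annotation divided the members by structure. Of 1416 members whose deposited length equals the annotated one, 611 (43.1%) hold at least 1 whole intron of another transcript inside an exon. A further 792 (55.9%) hold none and have an end inside an intron, and 13 have neither. Rows under 5 TPM in both libraries, in genes at 5 TPM or more, held a whole intron in 32.0% and only an end in an intron in 67.3% of 8316. Members that stop inside an intron were 34.7% of the 1416, against 56.7% of those rows, while the share that start inside one was 50.3% against 49.1%. These differences between annotated sets were not tested. Members with a whole intron had a median IsoPct of 14.1 and 13.9 and were the main transcript in 70 cases (11.5%). Those with only an end in an intron had 23.5 and 24.3 and were the main transcript in 218 cases (27.5%). By expected counts the order of these classes was the reverse, with median shares of 9.13% and 9.81% for whole introns and 7.07% and 7.47% for ends.

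How well a member can be told from its neighbours depends on the bases it shares with no other transcript of the gene. The median member had 126 such bases, or 16.3% of its length, against 263 bases in the rows under 5 TPM. No such base existed in 234 members (16.5%), and 603 had fewer than 100 (42.6%, against 25.6% of the rows under 5 TPM). Rps2-203, Rack1-203, Srsf3-203 and Ptbp1-214 were among those with none, so their levels rest on how the authors' quantification divided shared reads. Vim-204 had 80 such bases, Hba-a1-202 had 113 and Tpt1-206 had 300.

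The whole introns kept in members were short and GC-rich. The 1002 distinct introns had a median length of 177.5 bases (quartiles 93.0 and 352) and a median GC content of 56.1% (51.4 and 60.4). In the rows under 5 TPM, 3752 introns had medians of 271 bases and 50.9%, and the 952 of these in the members' own host genes had 210 bases and 52.5%. In the 208 genes with introns of both sets, the members' introns were shorter in 114 and higher in GC in 131, with median differences of -10.0 bases and 1.66 percentage points. In all host genes with a kept whole intron, not only those 208, 6338 introns of coding transcripts were kept by no member. Their median length was 382.5 bases. These sets were not compared by a test. GT-AG ends were found in 980 of the members' introns (97.8%) and GC-AG ends in 13. The AT-AC ends of one class of minor-spliceosome introns were found in none, and in 3 of the 3752 others. Of 806 introns with a place in a coding transcript of at least 3 introns, 46 (5.71%) were its first and 73 (9.06%) its last. The shares were 8.57% and 6.00% in the rows under 5 TPM and 7.02% and 6.02% in those of the same host genes. The sets differ in the number of introns per transcript. Were every place equally likely, 11.2% of the members' introns would be first, against 10.2% and 8.89% in those rows. The same shares would be last.

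**Figure D4:**
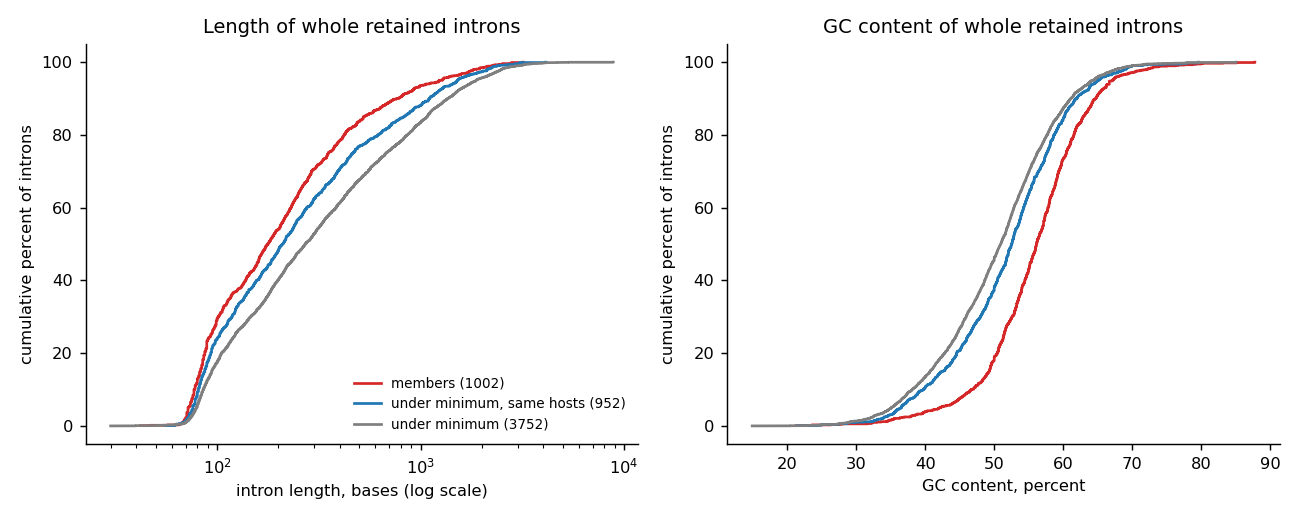
Cumulative percent of whole retained introns against length in bases (left, log scale) and GC content (right), for members in red, for rows under 5 TPM in the same host genes in blue and for all rows under 5 TPM in grey. The members' curve lies to the left for length (median 177.5 bases) and to the right for GC (median 56.1%).

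Most kept introns would close the reading frame. For 766 introns the annotation gives a coding transcript with a complete frame on both sides, and in 650 of them (84.9%) that frame met a stop codon in the intron. The other introns left the frame shifted in 86 cases and open at a multiple of 3 bases in 30 (3.92%). In rows under 5 TPM of the same host genes the stop share was 85.1%. The 132-base intron of Tuba1b-202, printed above, is open and a multiple of 3, and the 80-base intron of Mrps26-201 is open and shifts the frame. Of the 611 members with a whole intron, 380 keep 1, 123 keep 2 and 108 keep 3 or more, introns of different transcripts that overlap being counted separately. Ip6k2-207, from an inositol hexakisphosphate kinase gene, has the most with 12, at 13.7 and 10.3 TPM.

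Members were also looked for in genes for SR proteins, their kinases, hnRNP proteins and the spliceosome. Of genes that have a retained_intron row and reached 5 TPM in each library, 25.2% hosted a member. A member must itself reach 5 TPM, and the share was higher in genes of higher level: it was 4.93% of genes at 5 to 20 TPM, 24.5% at 20 to 50, 41.3% at 50 to 100, 55.9% at 100 to 500 and 72.2% above. The list of SR and TRA2 splicing regulators, most of which bind exonic enhancers and promote exon use, had 11 such genes. Of these, 7 hosted 10 members, and the 11 genes had mean levels from 17.1 to 550 TPM. The host of highest level, Srrm2, with 2 of the members, encodes a spliceosome scaffold protein. The kinases that phosphorylate SR proteins had 3 hosts of 5, with 6 members, at a median gene level of 36.1 TPM. Genes for hnRNP proteins, which often oppose exon use, had 3 hosts of 11 with 7 members. The spliceosome core had 7 of 24 with 9 members, and none of 4 minor spliceosome genes was a host. The hnRNP and core shares, 27.3% and 29.2%, were near the 25.2% over all such genes. The 4 minor spliceosome genes are too few to set against it. These lists were not tested against other genes.

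Genes of the SR and TRA2 list differed widely in how much of their output was a member. Srsf3-203 (chromosome 17, 29036379 to 29040141) held 61.7% and 81.7% of Srsf3 at 55.8 and 73.2 TPM, and the coding Srsf3-202 had 6.81 and 5.04 TPM. Srsf3-204, also a member, held 9.39% and 6.66%, and Srsf3-201, annotated to nonsense-mediated decay, stood at 20.7% and 5.35%. Srsf6-204 (chromosome 2, 162931528 to 162935208) held 42.5% and 53.7% of Srsf6 at 28.3 and 43.6 TPM, and its count share was 47.1% and 58.8%, beside 36.2% and 36.4% for the coding Srsf6-203. It spans whole introns and has 1015 bases found in no other transcript of the gene. Both Srsf3-203 and Srsf6-204 were the main transcript of their gene in both libraries. Srsf1-206 held 23.6% and 43.2%, Srsf11-203 24.4% and 20.02% and Srsf5-212 12.1% and 9.68%. By contrast, Srsf2-203 held 2.92% and 1.07% of a gene at 396 and 627 TPM, and Srrm2, the gene for a spliceosome scaffold protein, had Srrm2-207 with 1.43% and 1.59% and Srrm2-209 with 22.7% and 20.7%.

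CLK kinases, which release SR proteins from nuclear speckles by phosphorylation, had 6 members. Clk1 had 3, with 48.2% and 49.5% of the gene's TPM together, while the gene stood at 79.6 and 43.2 TPM. Clk1-204 (chromosome 1, 58416143 to 58424066) runs through introns 3, 4 and 6 of Clk1-201, stops in intron 7, and held 11.0% and 12.5% at 8.79 and 5.38 TPM. Clk1-202 held 16.5% and 19.3% and Clk1-213 held 20.7% and 17.7%. The full-length coding Clk1-201 held 14.7% and 10.4%, less than the 3 members in sum. The largest single share in both libraries, 25.39% and 24.45%, was that of Clk1-211, annotated to nonsense-mediated decay. Clk2-207, at 3168 bases, held 29.1% and 27.6% of TPM and 45.5% and 44.9% of the counts of Clk2. Clk4-206 held 16.8% and 38.1%, the widest gap between libraries among the CLK members.

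Members of hnRNP and core spliceosome genes ranged from minor to main transcripts. Ptbp1-214, from the gene for polypyrimidine tract binding protein, held 33.7% and 27.2% at 78.8 and 56.1 TPM and was the main transcript of its gene in both libraries, but it has no base of its own. Hnrnpl, which encodes an exon-silencing RNA-binding protein, had 3 members with 35.1% and 36.2% in sum, and Hnrnpk-204 held 10.1% and 20.8%. Ddx39b-204, from the gene for an RNA helicase of splicing and export, held 25.2% and 29.7% at 67.8 and 67.8 TPM. Prpf38b-205 (52.9% and 61.8%), from a splicing factor gene, and Snrpd3-202 (60.1% and 70.3%), from the gene for the Sm protein D3, were the main transcripts of their genes. Rbm39-208, from the gene for an RNA-binding splicing coactivator, held 31.5% and 68.1%, the widest gap between libraries among the splicing genes. Rsrp1-204, from an arginine- and serine-rich protein gene outside these lists, held 26.1% and 7.49%.

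**Figure D5:**
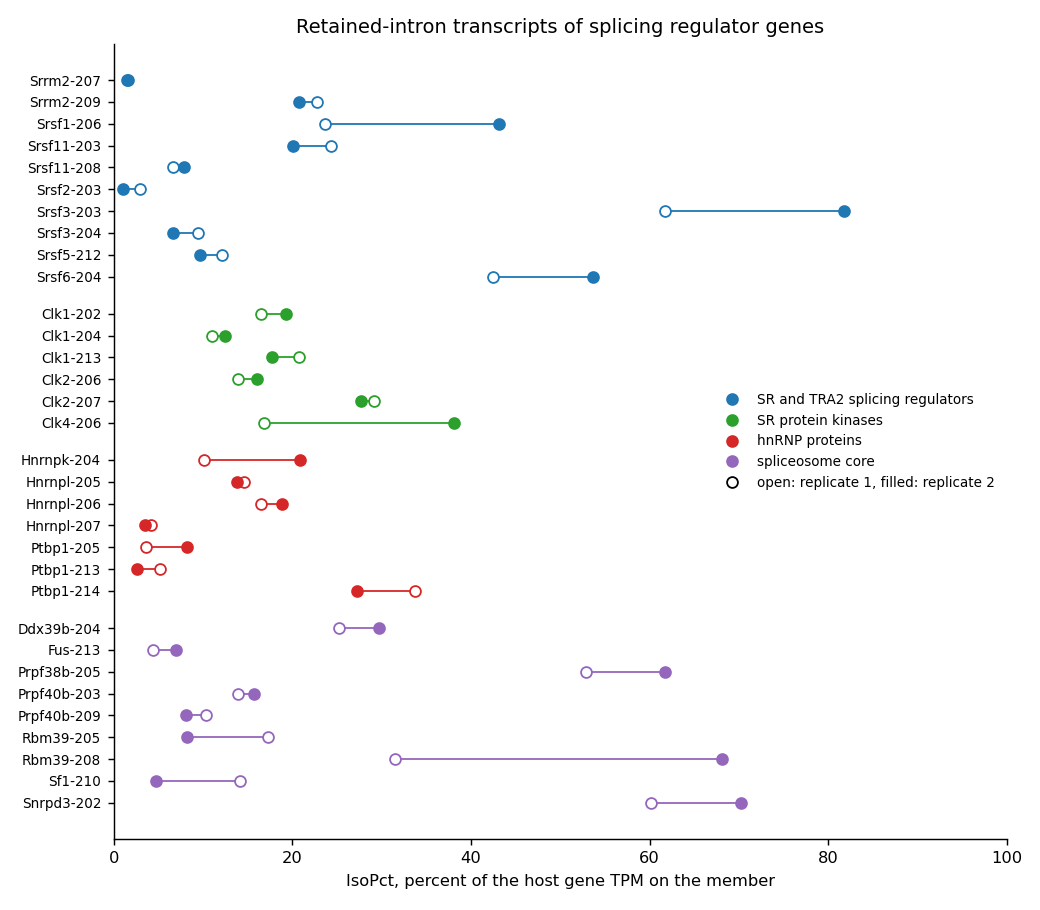
IsoPct of each retained-intron member in the SR and TRA2, SR kinase, hnRNP and core spliceosome lists, open circles replicate 1 and filled circles replicate 2. The pairs of Rbm39-208, Clk4-206, Srsf3-203 and Srsf1-206 are the widest of those drawn.

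Decay and export factors hosted 3 members in each of the lists. Of 5 nonsense-mediated decay genes with a row, Smg5 and Smg9, which act on the phosphorylated helicase UPF1, hosted 3 members. Hosts were 40% of these genes, 22.2% of the decay and export genes and 40% of the long non-coding RNA genes below. Over all genes with a row the share was 25.2%. Smg5-203 held 12.7% and 11.1%, Smg5-208 13.5% and 12.0% and Smg9-206 18.6% and 20.3%. In nuclear RNA decay and export, 2 of 9 genes with a row were hosts. Tpr, which encodes a nuclear basket protein of the pore that limits export of unspliced RNA, had 2 members, Tpr-204 with 44.3% and 53.3% and Tpr-212 with 29.5% and 16.4%. Alyref-203, from the gene for an mRNA export adaptor, held 22.5% and 45.0% at 5.81 and 10.9 TPM. Of 5 long non-coding RNA genes with a row, Gas5 and 1810026B05Rik were hosts. Gas5-201, from a snoRNA host gene, held 42.5% and 38.1%, and 1810026B05Rik-204 held 69.2% and 85.9%.

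A small RNA gene lay inside a kept intron in 12 members (1.96% of those with a whole intron, against 2.07% in the rows under 5 TPM). Hspa8-208 holds Snord14c, Snord14d and Snord14e at 5.24 and 8.51 TPM, Rpl10-209 holds Snora70, Rpl12-207 holds Snora65 and Zfas1-201 holds Snord12. Zfas1-201 had the largest share of its gene in this set, 33.3% and 44.3% at 8.27 and 8.59 TPM. The microRNA genes were Mir6935 in Actg1-207 and Actg1-209, Mir6970 in Skiv2l-209 and Skiv2l-210, Mir7115 in Arrb2-210, Mir3101 in Rab4b-205 and Mir6936 in Sirt7-203.

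Ribosomal protein genes hosted members in 14 of 43 cases (32.6%), with 19 members, at a median gene level of 383 TPM. The share was 25.2% of all genes with a row and 55.9% of those at 100 to 500 TPM. Their members were mostly minor, with a median IsoPct of 2.59 and 5.60, and Rps2-203, with 51.6% and 40.5%, was among the exceptions. Rps9-206 held 39.4% and 47.2%, and Rpl5-202 48.2% and 68.2% of a gene listed at only 16.6 and 16.0 TPM. At the other end, Rps21-203 held 0.620% and 0.590% of a gene at 1819 and 2478 TPM. Ribosomal protein genes have many processed copies in the genome, and reads may be divided among them.

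Markers of lung cell types hosted members whose shares differed widely. Alveolar type 2 markers had 4 hosts of 5 genes with a row. Hosts were 25.2% of all genes with a row, but 72.2% of those above 500 TPM. The host genes Sftpb, Slc34a2 and Napsa were above 500 TPM, so the count shows nothing particular to this cell type. Lpcat1-204, from the gene for a surfactant phospholipid acyltransferase, had 118 and 39.5 TPM and held 31.8% and 10.4%. Napsa-202 held 1.31% and 1.18% and Slc34a2-202 1.25% and 0.770%. Ager, the alveolar type 1 marker for the receptor of advanced glycation end products, had 3 members at 4.12% and 2.95% in sum, in a gene at 1703 and 1669 TPM. In the airway, Cbr2-202 added 269 and 361 TPM to Cbr2-203, and Sec14l3-205, from a lipid transfer protein gene of ciliated cells, held 36.7% and 38.0% at 238 and 200 TPM.

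Endothelial genes had 3 hosts of 8 with 7 members (37.5%, against 25.2% of all genes with a row, a share that rises with gene level). Egfl7, which encodes a secreted angiogenic factor, had 4 members with 17.9% and 17.0% in sum; Egfl7-213 had 141 and 127 TPM and Egfl7-214 had 127 and 132. Eng-206, from the gene for the TGF-beta coreceptor endoglin, held 6.53% and 4.44%. Ramp2-205, from the gene for an adrenomedullin receptor subunit, is described with the differences between libraries. Fibroblast genes had 3 hosts of 12, led by Sparc-205 and by Inmt-202, from a methyltransferase gene, at 236 and 372 TPM with 16.5% and 25.2%. Of the smooth muscle markers, Flna, for the actin crosslinker filamin A, had 3 members with 27.7% and 28.2% in sum, and Mylk-202, for myosin light chain kinase, held 11.4% and 20.8%. Ptprc-210, from the gene of the leukocyte phosphatase CD45, held 18.9% and 15.9% at 6.38 and 5.49 TPM.

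Members were also found in genes of the feedback and circadian clock lists. Ogt-204, from the O-GlcNAc transferase gene, held 18.9% and 18.4% at 18 and 10.1 TPM, and has 1349 bases of its own. The cold-inducible RNA-binding protein genes had Rbm3-209 at 36.0% and 43.1% and Cirbp-204 at 35.2% and 22.8%. Among 4 clock genes with a row, Nr1d2-202, from a nuclear receptor gene, stood at 10.1 and 31.8 TPM and held 56.3% and 80.5%, while the output-factor gene Tef had 2 members of 11% to 15%.

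The libraries can be compared only with each other. Over the members, log2 TPM of replicate 1 and replicate 2 had Pearson's r 0.875 and Spearman's rho 0.786, and IsoPct had 0.920 and 0.922. These describe 1468 transcripts that share 2 libraries and their hosts. A member was 2-fold or more apart in 140 cases (9.54%), against 6.45% of all 13292 transcripts at the threshold. Of the 1468 members, 82 were 2-fold higher in replicate 2, against 403 of the 13292 transcripts (3.03%). In replicate 1, 58 members were 2-fold higher, against 454 of the 13292 (3.42%). The members' share was above the background in both directions, and closer to it for replicate 1. The 2-fold share of protein-coding transcripts was 5.62%, of nonsense-mediated decay transcripts 12.2% and of processed transcripts 13.6%. Among the 2-fold members the split favoured replicate 2 on each scale, and its size depends on the scaling. Over all members, 45.6% were higher in replicate 2 on TPM, with a median log2 ratio of -0.06. The median log2 ratio of all transcripts was -0.10 on TPM and 0.16 on TMM-scaled counts, where the split was 142 against 30. On FPKM the split was 109 against 44. A split over all transcripts is given here on TPM only. The deposited TPM intervals of the libraries did not overlap in 634 of the 1468 members, where they were narrower than the difference between libraries. The share over all transcripts is not given here, so this count shows nothing particular to members.

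Most of these members had a host gene that was itself under 2-fold apart. The host gene was 2-fold apart in the same direction for 17 of the 140 members and under 2-fold for 123. A host under 2-fold can still have moved the same way, and these counts over all transcripts are not given here. Relative to the gene, 99 members (6.75%) were 2-fold apart, against 4.62% of all transcripts in genes with more than 1. Of them, 56 were higher and 43 lower in replicate 2. The 2-fold share was 4.75% (29 members) where a whole intron is kept and 13.0% (103 members) where only an end lies in an intron. It was 15.5% in members under 600 bases and 9.09%, 8.53% and 3.47% in the longer bins. It was 10.8% in members with fewer than 100 bases of their own and 8.49% in the others, and by mean expected count 6.20% under 100, 10.3% at 100 to 500, 8.72% at 500 to 2000 and 11.3% above.

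The largest excess in replicate 2 was that of Hspa8-207, from the gene for the constitutive heat shock cognate protein. It stood at 9.62 and 134 TPM (chromosome 9, 40801287 to 40803379), or 0.750% and 9.07% of the gene, a log2 ratio of 3.79 against 0.20 for Hspa8 itself. It differs from other transcripts of the gene by 115 bases, the intron printed above. Rps16-202 stood at 71.9 and 547 TPM, with 11.5% and 62.9% of the gene, and Tuba1b-202, from an alpha-tubulin gene, at 30.7 and 192. These 3 members come from large gene families or genes with many processed copies, so their split is uncertain. Timm23-204 (6.95 and 52.5 TPM), Acaa1a-204 (10.8 and 79.2), Lmbr1l-206 (5.07 and 36.3) and Litaf-203 (6.19 and 41.8) differed in the same direction with log2 ratios of their genes of 0.23, 0.46, 0.54 and 0.02. In replicate 1, Timm23-204, Lmbr1l-206 and Litaf-203 were near the threshold, on 58.2, 31.3 and 30.4 expected counts, so their ratios are uncertain. Acaa1a-204 had 275 there.

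The largest excess in replicate 1 was that of Itm2c-202. Itm2c-202, from a gene for a membrane protein that inhibits amyloid precursor processing, had 46.5 and 8.63 TPM, a log2 ratio of -2.42 against -0.40 for its gene. Vegfa-210, from the gene of the main angiogenic growth factor, had 54.3 and 10.2 TPM and held 4.42% and 1.06%, with no base of its own. Mbd2-204, from the gene for a methyl-CpG-binding protein, had 37.4 and 7.21 TPM and held 54.7% and 19.1%. Ramp2-205 (chromosome 11, 101246933 to 101248250) had 249 and 50.4 TPM, or 39.5% and 6.54%, while the coding Ramp2-204 had 322 and 586 TPM, in the opposite direction. Rhbdf1-203 (28.3 and 6.37 TPM), Leng8-208 (80.1 and 19.2) and Ncln-208 (40.2 and 9.73) followed, with log2 ratios of their genes of -0.03, -0.48 and 0.03. In replicate 2, Mbd2-204 and Rhbdf1-203 rested on only 72.4 and 63.1 expected counts. Squamous and skeletal muscle markers were also higher in replicate 1, and their part in these differences was not tested.

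Some genes had several members. A single member was found in 775 host genes, 2 in 186, 3 in 75 and 4 or more in 22, and in 207 genes the members together held 50% or more of TPM in both libraries. Man2c1, which encodes the cytosolic alpha-mannosidase, had the most, 7 members with 76.9% and 76.1% of the gene, led by Man2c1-204 (48.1 and 43.6 TPM) and Man2c1-222 (47.8 and 53.8 TPM). Sbf1, for a phosphatase-like regulator of endosomes, had 5 with 57.2% and 57.1%, Rgl2, for an exchange factor of Ral, 5 with 51.7% and 51.8%, and Uba7, for the ISG15-activating enzyme, 5 with 59.2% and 59.4%. Piezo1, for a mechanosensitive channel, had 4 with 50.03% and 52.1%, and Dctn6, for a dynactin subunit, 4 with 84.0% and 90.8%. Map4k2 (38.6% and 31.3%) and Vegfa (23.7% and 22.3%) had 5 each. The summed share differed by less than 1 percentage point between libraries in Man2c1, Sbf1, Rgl2 and Uba7. Members of a gene overlap in sequence, so their separate levels are less certain than their sum.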

How the data were processed

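RNA abundance was measured in 2 libraries of 1 group, replicates 1 and 2, each with a table of genes and a table of transcripts. The authors deposited expected counts (fragments estimated per transcript), TPM, FPKM and IsoPct (a transcript's percent of the TPM of its gene), with bounds of a TPM interval whose level is not given, per the file headers. The deposited file lists name mm10 and GENCODE M4; aligner and quantifier: not given in the sources used here. Transcript types, names, exons and sequences were taken from GENCODE M21 on GRCm38, matched by transcript identifier; 2129 transcripts had no match and no type. Structure was read only where the deposited and annotated lengths are equal. Files on mm9 were not used here.

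Members, gene lists and tests were chosen with earlier results of these data known. The named members are the 15 of highest mean TPM, the 10 of highest mean IsoPct, the 6 largest ratios between libraries in each direction with and without the host gene's ratio, members in the gene lists, and the nearest 3 rows on each side of the threshold. The hosts of small RNA genes, the genes with 4 or more members, coding transcripts set beside members, the structural classes and the bins were chosen after their values were seen. Ratios between libraries are log2 of TPM with a pseudocount of 0.1 added, called at 2-fold with no p-value; introns of at least 30 bases were counted. Expected counts were also scaled by TMM (edgeR 4.0.16, R 4.3.3, prior count 2) as an alternative. The 2-fold call was run on simulated Poisson counts with seeded changes. That simulation has no spread between libraries beyond counting and no reads shared between transcripts. It checks the calculation only, and cannot show how many calls in these data are due to such spread. Python 3.11.15, pandas 2.3.3 and numpy 2.4.6 were used. The depth was 48234745 and 44182836 expected counts.
A few members that meet the naming rule are not reported here.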

Additional observations from a re-analysis of the deposited data

How the results depend on the processing

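With a minimum of 1 TPM there were 4112 members, with 10 TPM 759, and with at least 100 bases found in no other transcript of the gene 813. The last setting was chosen after the data were seen for this count and for the count of 2-fold differences. Members at 50% or more of the host gene numbered 146 with single-transcript genes included, 58 by share of expected counts, 74 with at least 100 such bases, and 195 to 252 without 1 of the replicates. The median of mean IsoPct, 18.6, was 8.46 by share of expected counts, 9.61 at 1 TPM, 24.7 at 10 TPM, 16.8 with at least 100 such bases, and 16.8 to 18.3 without 1 of the replicates. The 140 members 2-fold apart became 71 of 759 at 10 TPM and 69 with at least 100 such bases, since fewer members were counted; the shares were 9.35%, against 5.13% of all transcripts at 10 TPM, and 8.49%. With TMM scaling 172 were called, 11.7% against 7.40% of all transcripts. Leaving out a replicate cannot give a ratio, so that alternative was not run. Counting only introns of protein-coding transcripts gave a median length of 169 bases and 56.3% GC, and the longest intron of each member gave 203 bases and 56.4%. Of the counts recomputed under other settings, 14 stayed within 1.5 times the reported count, the 172 with TMM and the 195 without replicate 2 among them. Depth limits the 204 members with fewer than 100 expected counts in a library. No paired analysis was possible because there is 1 group.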
